A study of Mus musculus with 2 samples.

Results

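Bile acid synthesis, conjugation and uptake were represented by 10 genes of mouse liver, taken as every probe set annotated with exactly one symbol that was one of the 10 names. They are Cyp7a1 and Cyp8b1 of the classic route, Cyp27a1 and Cyp7b1 of the alternative route, the oxysterol hydroxylase Cyp39a1, the side-chain enzymes Acox2 and Amacr, the conjugation enzymes Baat and Slc27a5, and the uptake carrier Slc10a1. All 10 had a probe set, 16 in all, among the 45101 probe sets and 18193 named genes of an Affymetrix mouse array. Livers came from male C57BL/6J mice, an inbred wild-type strain, that were housed singly and were 5 months old. One group was fed ad libitum (AL) for 12 weeks from the age of 8 weeks. The calorie-restricted (CR) group received 20% less food in the first week and 40% less in the 11 weeks after it. RNA of 3 mice per group was pooled in equal amounts and each pool was run on 1 array.

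The comparison asks how the expression of these genes differed by diet. A single array of pooled RNA stood for each diet, so no value below carries a p-value or an error between mice, and precision is limited by having only 2 arrays. Differences are CR minus AL in log2 intensity, and at least 2-fold means a difference of at least 1 on the log2 scale in either direction. A gene is given by its brightest probe set, judged by the mean log2 intensity of both pools. It counted as measured if either pool reached 7.38, the median of all intensities over both arrays, as 12644 genes did, among them all 10 described here. As a rough technical yardstick, among the 4924 genes with 2 or more measured probe sets the median SD between the differences of a gene's probe sets was 0.29. The 75th percentile of this SD was 0.46. It was taken within the same 2 arrays, so it holds no error between arrays or pools.

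Bile acids are made from cholesterol in hepatocytes. In the classic route the sterol is first hydroxylated on its ring by Cyp7a1, the rate-limiting enzyme, and Cyp8b1 then adds the hydroxyl group that sends the product toward cholic acid. In the alternative route Cyp27a1 first oxidises the side chain, and Cyp7b1 hydroxylates the ring of the resulting oxysterol. Both routes then share the shortening of the side chain in peroxisomes and the coupling to taurine or glycine, and bile acids that return from the gut are taken up from portal blood by the sodium-dependent carrier Slc10a1, also called NTCP.

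RefSeq promoter windows of the GRCm38.p6 build were matched by symbol for 4 of the 10 genes, Cyp8b1, Cyp27a1, Acox2 and Slc10a1. The 250 bases before the start are shown for 3 of them, which stand for ring hydroxylation, side-chain shortening and uptake. Where RefSeq gives several starts, the start farthest upstream is shown. The Cyp8b1 window is chr9:121916306-121916555, that of Acox2 chr14:8259020-8259269 and that of Slc10a1 chr12:80968706-80968955, all on the minus strand and printed 5′ to 3′ toward the start. Capitals mark matches to any of 6 short motifs.
Cyp8b1: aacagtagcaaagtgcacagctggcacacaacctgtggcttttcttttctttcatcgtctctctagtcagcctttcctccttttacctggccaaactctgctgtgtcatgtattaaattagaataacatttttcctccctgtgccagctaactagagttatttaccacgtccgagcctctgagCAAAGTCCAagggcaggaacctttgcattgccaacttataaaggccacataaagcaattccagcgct
Acox2: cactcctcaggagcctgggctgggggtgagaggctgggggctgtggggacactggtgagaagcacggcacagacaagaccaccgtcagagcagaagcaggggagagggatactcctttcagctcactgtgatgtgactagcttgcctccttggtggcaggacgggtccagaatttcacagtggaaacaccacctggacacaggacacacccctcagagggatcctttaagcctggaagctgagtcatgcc
Slc10a1: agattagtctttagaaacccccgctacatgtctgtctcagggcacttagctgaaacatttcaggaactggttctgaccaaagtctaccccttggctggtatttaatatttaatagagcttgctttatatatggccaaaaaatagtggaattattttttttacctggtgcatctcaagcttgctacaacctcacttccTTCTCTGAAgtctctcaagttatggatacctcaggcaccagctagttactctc

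The motifs were searched on both strands of the 250 bases. They were the nuclear receptor half-site AGGTCA, the LRH-1 type site TCAAGGTCA that contains it, the HNF4A type site CAAAGTCCA, the STAT5 type site TTCNNNGAA, the E-box CACGTG and the D-box TTATGTAA. The Cyp8b1 window held CAAAGTCCA from 67 to 59 bases before the start, a sequence found in 0.384% of 32851 windows of this length. The Slc10a1 window held TTCTCTGAA from 53 to 45 bases before the start, a match to the STAT5 type site found in 7.02% of windows. The window at the other Slc10a1 start held AGGTCA from 87 to 82 bases before it, a half-site found in 14.0% of windows, and no STAT5 type site. The printed Acox2 window and the Cyp27a1 window matched none of the 6. A match is a description of letters, and nothing was measured on these arrays at the promoters.

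Of the 10 genes, 2 were at least 2-fold lower in the CR pool and none was at least 2-fold higher. The background over all 12644 measured genes was 2.79% for a difference of this size toward lower values in CR and 1.80% toward higher values. Among the 7581 genes that reached the stricter intensity limit of 21.0, as all 10 did, the shares were 4.25% and 2.78%. At 1.5-fold the same 2 genes were lower, against 9.49% of measured genes, and 1 gene, Cyp39a1, was higher, against 6.76%. The 2 lower genes were Cyp7b1 and Acox2. The other 8 lay between -0.42 and 0.92. In all, 6 of the 10 lay below 0 and 4 above, with a median of -0.22 against -0.02 over all measured genes. Both pools are whole liver, so fewer cells of a type and less RNA per cell cannot be told apart in any of these values.

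**Figure D1:**
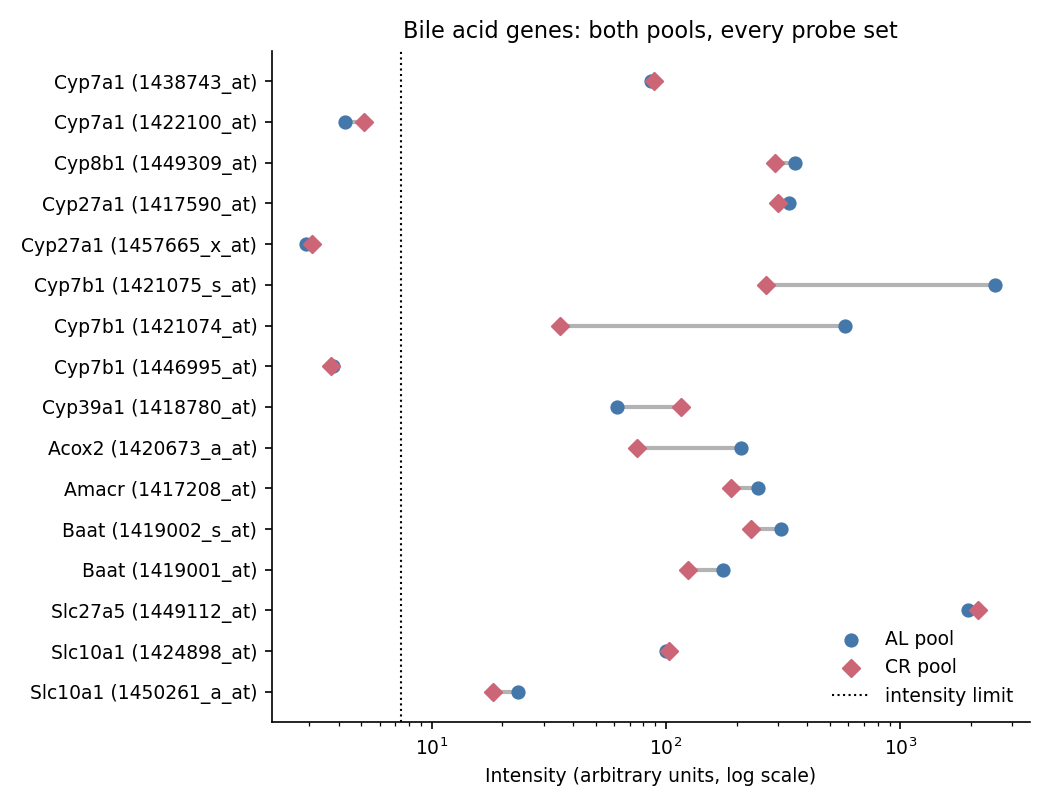
Intensity (horizontal axis, arbitrary units, log scale) of all 16 probe sets of the 10 genes, with a circle for the AL pool, a diamond for the CR pool and a dotted line at the intensity limit of 7.38. Both measured Cyp7b1 probe sets and that of Acox2 lie well to the left in CR, and 3 probe sets lie below the limit in both pools.

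The classic route was close to equal in the pools. Cyp7a1 (Entrez gene 13122), the enzyme that commits cholesterol to bile acids, read 86.3 in AL and 88.9 in CR, a difference of 0.04. Its other probe set, at 4.25 and 5.14, was below the intensity limit in both pools and carries no usable difference. Cyp8b1 (Entrez gene 13124), the sterol 12α-hydroxylase that sets the share of cholic acid, had 354 in AL and 291 in CR on its single probe set, a difference of -0.28. Both differences were smaller than the probe set yardstick of 0.29.

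The alternative route held the largest difference of the 10 genes, in the later of its enzymes. Cyp27a1 (Entrez gene 104086), the mitochondrial sterol 27-hydroxylase that opens this route, had 336 in AL and 302 in CR, a difference of -0.16, and its other probe set lay below the limit in both pools. Cyp7b1 (Entrez gene 13123), the oxysterol 7α-hydroxylase, had 2544 in AL and 267 in CR on its brightest probe set. That is 9.53-fold lower in CR, a difference of -3.25. The second measured probe set had 578 in AL and 35.4 in CR, 16.3-fold lower, a difference of -4.03. Thus both measured Cyp7b1 probe sets were lower in CR but stayed above the 75th percentile of the CR array, 20.7. The third lay near background at 3.79 and 3.72. The brightest is of a type (_s_at) that can match several transcripts, whereas the second is not.

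Among the 12644 measured genes, 11 had a difference below that of Cyp7b1. The 3 genes with the nearest differences over the 2 arrays were Mup3, a major urinary protein gene, at -3.22, the pseudogene Adh6-ps1 at -3.33, and Nudt7, which encodes a peroxisomal coenzyme A diphosphatase, at -3.38. The 4 measured probe sets of Nudt7 ran from -3.38 to -0.45. Mup3 had 1 measured probe set, of a type (_x_at) that can match several transcripts. With 2 arrays, likeness is only a similar size of one difference.

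As means of 2 genes, the classic route stood at -0.12 and the alternative route at -1.70, so the classic route lay 1.59 above the alternative on the log2 scale. That gap rested on Cyp7b1. The enzymes that open each route, Cyp7a1 and Cyp27a1, differed from each other by 0.20, less than the yardstick. With Cyp27a1 alone for the alternative route, the gap was 0.04. The gap was 1.18 with the average of a gene's probe sets, which for Cyp7b1 takes in the one near background. It was 1.97 without the probe set types that can match several transcripts.

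**Figure D2:**
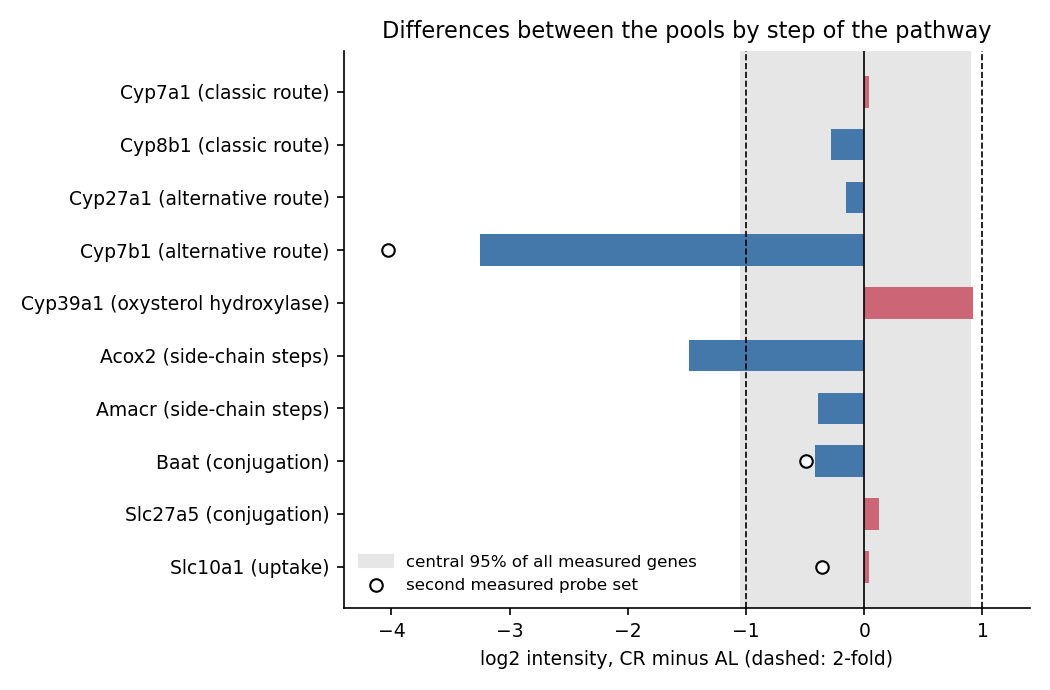
Difference in log2 intensity, CR minus AL (horizontal axis), as 1 bar per gene for its brightest probe set, with open circles for second measured probe sets, dashed lines at 2-fold and a grey band for the central 95% of all measured genes. Cyp7b1 and Acox2 reach past the band to the left, and Cyp39a1 ends just beyond its right edge, short of 2-fold.

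The enzymes that hydroxylate the sterol ring at the 7α position had 3 different values. Cyp7a1, which acts on cholesterol, stood at 0.04 and Cyp7b1, which acts on oxysterols, at -3.25. Cyp39a1 (Entrez gene 56050), a microsomal enzyme with a preference for 24-hydroxycholesterol, had 61.5 in AL and 116 in CR on its single probe set. That is 1.89-fold higher in CR, a difference of 0.92 and the highest of the 10 genes. It lay just outside the central 95% of all measured genes, which ran from -1.04 to 0.89, and 2.30% of measured genes had a higher difference. Cyp39a1 and Cyp7b1 thus lay 4.17 apart. Of the enzymes that supply oxysterols, Cyp27a1 is described above. Cyp46a1, which makes 24-hydroxycholesterol, had 18.2 in AL and 23.7 in CR, and Ch25h, which makes 25-hydroxycholesterol, was below the limit in both pools.

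The side-chain enzymes both lay below 0. Acox2 (Entrez gene 93732), the branched-chain acyl-CoA oxidase that starts the peroxisomal shortening of the bile acid side chain, had 209 in AL and 74.8 in CR. It was 2.80-fold lower in CR, a difference of -1.48, and 100 measured genes (0.791%) had a lower one. Its single probe set is of a type (_a_at) that can match several transcripts of the gene, so no second probe set bears on the value. Amacr (Entrez gene 17117), the racemase that gives side-chain intermediates the stereochemistry the oxidase needs, had 248 in AL and 189 in CR, a difference of -0.39. This is larger than the yardstick of 0.29, within the 75th percentile of 0.46 and far from 2-fold, and 17.4% of measured genes had a lower difference.

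Of the enzymes of conjugation, Slc27a5 was near equal in the pools. Baat lay below 0 by more than the yardstick of 0.29 but, on its brightest probe set, by less than 0.46. Slc27a5 (Entrez gene 26459), the bile acyl-CoA synthetase also called FATP5, read 1953 in AL and 2136 in CR on its single probe set, a difference of 0.13. Baat (Entrez gene 12012), the transferase that couples the activated bile acid to taurine or glycine, had 309 in AL and 231 in CR, a difference of -0.42. Its second probe set had 175 and 125, a difference of -0.49. Both Baat probe sets were thus lower in CR by a similar amount, and 16.2% of measured genes had a lower difference.

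The uptake carrier Slc10a1 (Entrez gene 20493) was near equal in the pools. It had 99.9 in AL and 103 in CR on its brighter probe set, a difference of 0.04. The dimmer one had 23.4 and 18.2, a difference of -0.36. The 2 probe sets differed in sign, as did those of 52.7% of genes with several measured probe sets. In all, 5 of the 10 genes (Cyp7a1, Cyp8b1, Cyp27a1, Slc27a5 and Slc10a1) had a difference smaller than the yardstick, as did 54.8% of all measured genes.

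**Figure D3:**
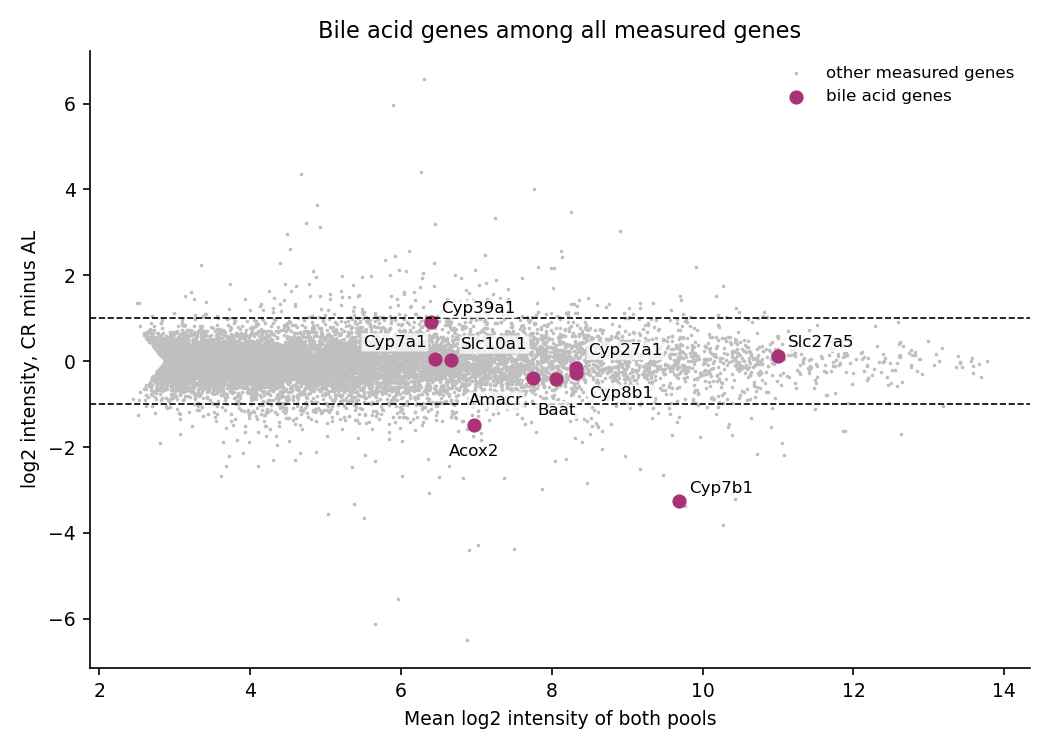
Difference in log2 intensity, CR minus AL (vertical axis), against mean log2 intensity of both pools (horizontal axis) for 12644 measured genes in grey, with the 10 bile acid genes named and dashed lines at 2-fold. Cyp7b1 at -3.25 and Acox2 at -1.48 lie below the lower line, and the other 8 lie between the lines.

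Other enzymes of bile acid synthesis were measured for 14 of 15 listed genes. Of the 14, 2 were at least 2-fold lower and none was 2-fold higher, against 2.79% and 1.80% of all measured genes. Of these enzymes, 5 lay above 0 and 9 below, and the median was -0.06. Hsd3b7, the steroid dehydrogenase that follows the ring hydroxylation in both routes, had 231 in AL and 42.4 in CR, a difference of -2.45. As for Acox2, this rests on a single probe set of a type (_a_at) that can match several transcripts. Akr1c6, an aldo-keto reductase, had 4223 in AL and 1959 in CR, a difference of -1.11. Cyp2c70, which makes the muricholic acids of mice, had 1491 in AL and 821 in CR, a difference of -0.86. Akr1d1, the reductase that forms the bent ring system of bile acids, lay the other way, with 134 in AL and 234 in CR, a difference of 0.80. Its dimmer probe set stood at 0.03.

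The peroxisomal partners of Acox2 did not share the size of its difference. These genes lie outside the rule for naming and were singled out after their values were seen. Hsd17b4, the bifunctional enzyme that acts after Acox2, read 1567 in AL and 1564 in CR. Its second probe set had 642 and 532, a difference of -0.27. Abcd3, a peroxisomal importer of bile acid intermediates, stood at -0.04 and the acyl-CoA synthetase Slc27a2 at -0.07. The thiolase Scp2, which completes the shortening, stood at -0.57, with probe sets from -0.97 to 0.49.

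Of the 7 genes of canalicular export, which move bile acids and lipids into bile, 2 were at least 2-fold lower and none 2-fold higher, with a median of -0.39. The shares over all measured genes were 2.79% lower and 1.80% higher. The bile salt export pump gene Abcb11 had 1328 in AL and 495 in CR, a difference of -1.42. Atp8b1, a phospholipid flippase of the same membrane, had 109 in AL and 48.1 in CR, a difference of -1.19. Abcg2 stood at -0.82 and the conjugate exporter Abcc2 at 0.50.

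On the blood side, 8 of 9 listed genes of basolateral export and other uptake were measured, with a median of -0.08. In each direction 1 of the 8 was past 2-fold, against 2.79% of all measured genes lower and 1.80% higher. The organic anion carrier gene Slco1a1 had 549 in AL and 26.2 in CR, a difference of -4.39, and its second probe set stood at -3.05. Slco1a4 had 47.6 in AL and 480 in CR, a difference of 3.34. These carriers therefore lay past 2-fold in opposite directions, while Slc10a1 stood at 0.04. Ephx1 stood at -0.95 and Slco2b1 at -0.53.

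Among the regulators of bile acid synthesis, 18 of 20 listed genes were measured, 10 above 0 and 8 below, with a median of 0.05. The fatty acid receptor gene Ppara was the member past 2-fold, with 190 in AL and 390 in CR, a difference of 1.04. Its 3 probe sets ran from 1.04 to 1.48. Over all measured genes, 1.80% were at least 2-fold higher and 2.79% at least 2-fold lower. Klb, the co-receptor through which the gut hormone FGF15 acts on hepatocytes, had 29.6 in AL and 52.9 in CR, a difference of 0.84. The clock output factor Dbp stood at 0.80 and the xenobiotic receptor gene Nr1i3, or CAR, at 0.79. Nr1h4, Nr0b2 and Fgfr4 were singled out after their values were seen, for their known part in feedback on Cyp7a1. The bile acid receptor gene Nr1h4, or FXR, had 151 in AL and 126 in CR, a difference of -0.26. Its target Nr0b2, or SHP, a repressor of Cyp7a1, had 50.4 and 35.4, a difference of -0.51. Fgfr4, the receptor that pairs with Klb, stood at -0.42, with 3 measured probe sets from -0.42 to 0.11.

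Cholesterol supply was measured for 11 genes, with 1 at least 2-fold higher, 1 at least 2-fold lower and a median of 0.11. The shares over all measured genes were 1.80% higher and 2.79% lower. Nceh1, a cholesteryl ester hydrolase, had 68.9 in AL and 208 in CR, a difference of 1.60, with all 3 probe sets above 0. The cholesterol exporter gene Abca1 had 334 in AL and 121 in CR, a difference of -1.47. The lysosomal cholesterol exporter Npc1 stood at 0.78 and the sterol carrier Stard3 at -0.61.

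**Figure D4:**
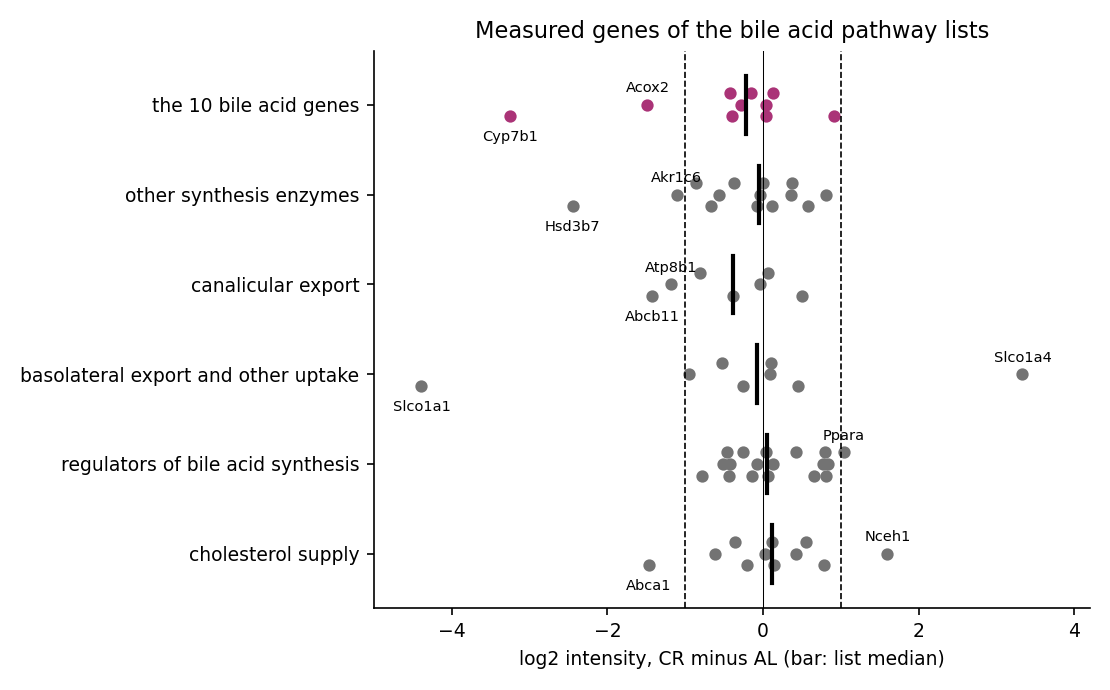
Difference in log2 intensity, CR minus AL (horizontal axis), of each measured gene, 1 point per gene, in the 10 bile acid genes and 5 lists around them, with a bar at each median, dashed lines at 2-fold and names for the genes past them. All 6 medians lie between -0.39 and 0.11, and single genes such as Slco1a1 at -4.39 and Slco1a4 at 3.34 lie far from them.

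Cyp7b1 is known to be more abundant in male than in female mouse liver. Beside it, 13 of 14 other male-predominant genes with a probe set lay below 0 and 1 above, with a median of -3.14 taken with no intensity limit. In this list 10 genes were at least 2-fold lower, 1 of them over the limit in AL alone, against 2.79% of all measured genes. Slco1a1, Mup3 and Nudt7, described above, are among its genes. This list was chosen with earlier results of these data known and is not independent evidence of direction. Of 12 female-predominant genes with a probe set, 11 lay above 0 and 1 below, with a median of 1.19 taken with no intensity limit. Of the 9 of them over the limit in both pools, 6 were at least 2-fold higher, against 1.80% of all measured genes. Slco1a4, described above, is among the female-predominant genes. Whether the Cyp7b1 difference belongs with the sex-biased genes was not tested. Cyp7a1 is known to be expressed mainly near the central vein, and markers of the liver's zones lay closer to 0. The medians were 0.01 over 8 pericentral markers and -0.14 over 6 periportal markers, and 1 of the latter, the adhesion gene Cdh1, was 2-fold lower at -1.31.

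The tissue label was borne out by its markers, with all 10 hepatocyte markers measured, a summed intensity of 66457 in AL and 59825 in CR and a median difference of -0.16. One of the 10, the tryptophan enzyme gene Tdo2, was 2-fold lower at -1.23, with probe sets from -1.23 to 0.00. With no intensity limit, all 9 markers of Kupffer cells and macrophages lay below 0, 7 of them over the limit in both pools. Their summed intensity was 2124 in AL and 1803 in CR. Lyz2 was 2-fold lower at -1.39, and Clec4f, Vsig4, Adgre1 and Timd4 lay from -0.88 to -0.57. However, Cd5l at -0.08, Csf1r at -0.09 and Marco at -0.13 lay within the yardstick of 0.29. A dimmer measured Csf1r probe set stood at 0.18, and Cd68 was below the limit in both pools. All 7 neutrophil markers with a probe set lay below 0, 4 of them over the limit in both pools, with a summed intensity of 140 in AL and 60.3 in CR. S100a8 and S100a9 were 2-fold lower at -2.29 and -1.75, and Elane stood at -0.50. Lcn2, over the limit in AL alone, stood at -0.90. Ngp at -0.23 lay within the yardstick, and Mpo and Camp were below the limit in both pools. Over all measured genes, 2.79% were at least 2-fold lower. Cholangiocyte markers had a summed intensity of 68.0 in AL and 62.3 in CR, and the defining keratin Krt19 was below the limit in both pools. No marker had an intensity of 0, since the processing leaves a floor of low values. Control probe sets of beta-actin and Gapdh, 6 in all, lay from -1.61 to -0.67. The 3′ probe set exceeded the 5′ one 83.5-fold in AL and 89.7-fold in CR for beta-actin. For Gapdh it did so 46.9-fold in AL and 53.2-fold in CR. Differences varied along these transcripts, from -0.73 at the 3′ end to -1.61 in the middle for beta-actin and from -0.67 to -1.11 for Gapdh. Genes with a single probe set offer no such check. The part of immune markers and of RNA quality in the differences above was not tested.

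The scaling of the arrays sets where 0 lies. The 18 hybridisation control probe sets, which detect the bioB, bioC, bioD and cre spikes, were higher in CR by 0.33 to 1.32, with a median of 1.02 over all and 0.37 for cre. The 24 probe sets of the dap, lys, phe and thr controls were higher in CR by 0.82 to 1.97, with a median of 1.41. Shifting every gene by the median of the hybridisation controls put all 10 genes below 0, Cyp39a1 at -0.10 included, and 6 of the 10 at least 2-fold lower, against 54.2% of all measured genes. Shifting by cre alone left the same count of 2 genes at least 2-fold lower, against 8.15%, and Cyp39a1 alone above 0, at 0.54. Cyp7b1 stood at -4.27 and -3.63 under these shifts and Acox2 at -2.50 and -1.86. Shifting by the dap, lys, phe and thr controls, an alternative added after seeing the data, put Cyp39a1 at -0.49 and the other 9 genes at least 2-fold lower, against 87.2% of all measured genes. A shift changes no gap between genes, so the distance between the routes stayed at 1.59. Every difference given above that is positive and under 1.02 lies below 0 after the shift by the hybridisation controls, every one under 1.41 after that by the dap, lys, phe and thr controls, and every one under 0.37 after that by cre, so these directions are relative to the typical gene.

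**Figure D5:**
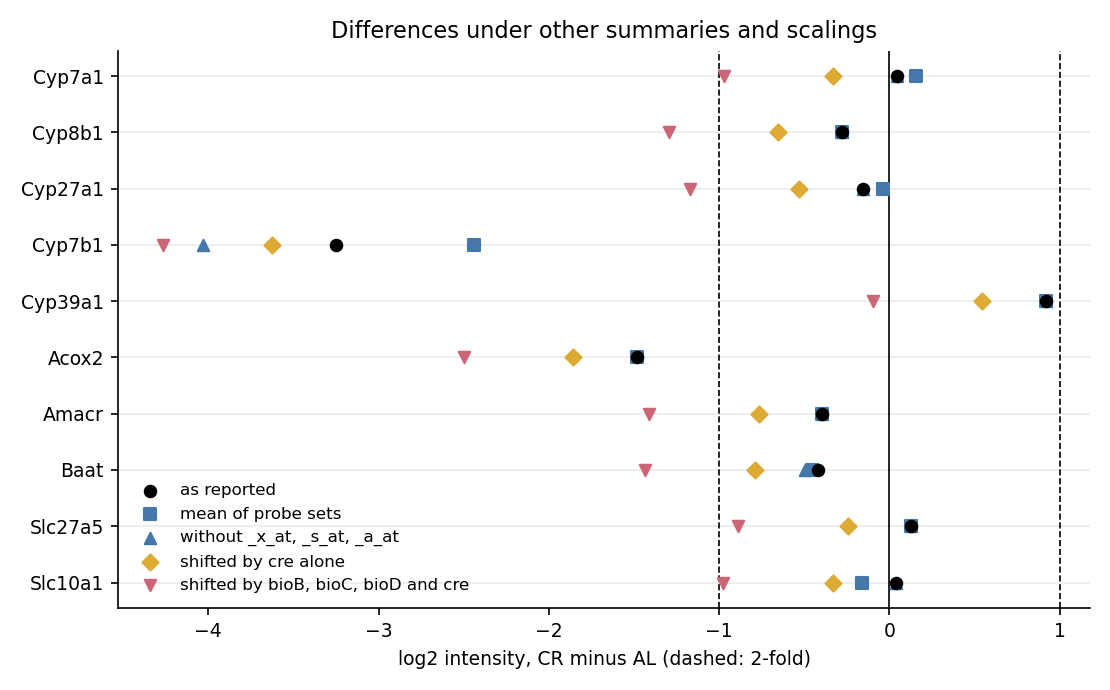
Difference in log2 intensity, CR minus AL (horizontal axis), of the 10 genes as reported, with probe sets averaged, without probe set types that can match several transcripts, and after shifts by cre alone or by all 18 hybridisation control probe sets, with dashed lines at 2-fold. Cyp7b1 and Acox2 stay left of the lower line wherever they have a value, and the Cyp7b1 values shown span -4.27 to -2.44.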

How the data were processed

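Liver RNA pools, 1 array per diet, were compared. The deposited table gives 1 intensity per probe set and pool. Per the submitters' processing notes the authors used RMA, which corrects background, normalizes arrays to each other and combines a probe set's probes. The deposited intensities were on a linear scale. The sources used here name no RMA version and no later scaling. No detection calls were used. Normalization between arrays hides a shift shared by most genes.

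Log2 differences, CR minus AL, were computed here with Python 3.11.15, numpy 2.4.6 and pandas 2.3.3. Gene symbols came from the platform annotation of 2016, and no probe set with several symbols held one of the 10 genes. The sources used here name no genome build for the array. Steps were tested on simulated data.

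The 10 genes and all lists were chosen with earlier results of these data known. The text names all 10, the members of each pathway list at least 2-fold different or, failing 4 of those, the 4 of largest absolute difference, and the 3 genes nearest to Cyp7b1. Of the cell type and sex-biased lists, medians and counts are given in place of most names. Alternatives were averaged probe sets, omitted probe set types (_x_at, _s_at, _a_at), other intensity limits, centring, loess (span 0.4, statsmodels 0.14.6), shifts by control probe sets, a 1.5-fold threshold and log2(value + 8). Leaving out a replicate was not possible with 1 array per group. Some listed genes are not reported here. Lists whose median the report does not give had these medians, over all genes with a probe set and with no intensity limit: Kupffer cell and macrophage -0.66 (9 genes), neutrophil -0.50 (7), lymphocyte -0.0018 (7), stellate cell and fibroblast -0.30 (8), endothelial -0.28 (8), cholangiocyte -0.08 (6), erythroid -0.08 (4) and adipocyte -0.04 (4).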

Additional observations from a re-analysis of the deposited data

How the results depend on the processing

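The count of genes at least 2-fold lower, 2 in the report, was 1 without the probe set types that can match several transcripts, because Acox2 then had no probe set, 6 after the shift by the hybridisation controls and 9 after that by the dap, lys, phe and thr controls, added after seeing the data. The count at least 2-fold higher, 0 in the report, was 1 at the 1.5-fold threshold, where 6.76% of measured genes lay, and that gene was Cyp39a1. The median of the 10 genes, -0.22 in the report, was -1.23, -0.59 and -1.63 after the shifts by the hybridisation controls, by cre and by the dap, lys, phe and thr controls. The gap between the routes was 1.18 with averaged probe sets and 1.97 without those probe set types. Of 99 values of single genes under alternatives, 67 moved by less than 0.29 and 32 moved by more, 30 of them under these shifts. The other 2 were those of Cyp7b1, at -2.44 with averaged probe sets and -4.03 without the omitted types. This tally was partly fixed in advance. Other intensity limits only drop genes, and all 10 passed, so those values could not move. Each shift subtracts a constant above 0.29 from every gene. Cyp7b1 and Acox2, the genes past 2-fold, kept their sign, but shifts that lower every value could not reverse them. Slc10a1 changed sign with averaged probe sets, from 0.04 to -0.16. Under every shift Cyp7a1, Slc27a5 and Slc10a1 lay below 0. Outside these shifts, Cyp39a1 ran from 0.84 to 0.94. No paired analysis was possible because each group had 1 array. With 1 array per group, the precision of every value is unknown beyond the spread between probe sets, and low intensities are not separated from background.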
